A study of Mus musculus with 7 samples.

Results

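The genes described here are 10 genes of the actin-based contractile apparatus: the calponins Cnn1, Cnn2 and Cnn3, transgelin 2 (Tagln2), the tropomyosins Tpm1, Tpm2 and Tpm4, the myosin regulatory light chain gene Myl9, and the non-muscle alpha-actinins Actn1 and Actn4. They were taken by name from the 37620 gene identifiers counted, and all 10 were present and passed the filter on low counts. They were chosen by values of this comparison, since their levels in the GSC1 and GSC2 tumours were known, so the differences between the tumour lines are given as a description, with no test. RNA had been sequenced from tumours formed in the brains of nude mice, which lack T cells, by implanted stem-like glioblastoma cells of 2 lines. GSC1 (4 tumours) carried the alterations labelled lgT/Ras, and GSC2 (3 tumours) carried shp53, Nf1-/- and CDK4. The cells of both lines derive from subventricular zone neural stem cells, and had been kept in culture for 10 to 15 passages. Each combination of alterations existed in 1 line, so a difference between the groups is a difference between lines. Levels are CPM, counts scaled to TMM-adjusted library sizes, given for GSC1 tumours 1 to 4 and GSC2 tumours 1 to 3, and log2 fold changes are GSC1 minus GSC2.

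Actin filaments carry tension when non-muscle or smooth muscle myosin II pulls on them, and the proteins of these genes set how that happens. Calponins and transgelins bind along the filament through a calponin homology domain, tropomyosins lie in the filament groove and decide which other proteins gain access, alpha-actinins bundle filaments and tie them to adhesions, and the regulatory light chain switches myosin on when it is phosphorylated. In normal brain the smooth muscle forms, Cnn1 and Myl9, mark arterial muscle, and Myl9 also marks pericytes. Cnn3, Tpm4, Actn1 and Actn4 are found in many cell types. Many genes of this apparatus are targets of serum response factor (SRF), which binds the CArG box.

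Depth was 21635117 to 32643408 reads on genes in GSC1 tumours and 18643155 to 27020814 in GSC2 tumours. Markers of brain tissue differed between tumours: the brain score, the mean log2 CPM of 10 neuron and 10 mature oligodendrocyte markers, was 6.14, 4.83, 8.71 and 8.03 in GSC1 tumours 1 to 4 and 6.36, 7.94 and 7.72 in GSC2 tumours 1 to 3. In GSC1 tumours 3 and 4 and GSC2 tumour 3, genes with transcripts of at least 8000 bases were low relative to genes of at most 2000 bases (median log2 deviation -0.40, -0.36 and -0.70, against 0.02 to 0.64 in the other 4), and these 3 libraries are called short-biased. The 8 neural stem cell markers were all present, summing to 2242 to 4887 CPM in GSC1 tumours and 3373 to 4122 CPM in GSC2 tumours. These are bulk samples, so fewer cells of a type cannot be told apart from less RNA per cell.

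Per kilobase of the longest annotated transcript, the 10 genes spanned a wide range of levels. Cnn3 was highest, at a mean of 246 CPM per kb over the 7 tumours (213 to 318), followed by Tpm4 at 208 (123 to 340) and Tagln2 at 145 (94.4 to 198). Actn1, Actn4 and Tpm1 averaged 79.7, 75.2 and 73.6 CPM per kb with ranges that overlapped widely, and Cnn2 averaged 51.6. Myl9, at 11.8 CPM per kb, Tpm2 at 4.62 and Cnn1 at 0.474 were the 3 lowest. Neighbours in this order had overlapping ranges from Cnn3 down to Tpm2, and the range of Cnn1, 0.107 to 0.920 CPM per kb, lay under that of every other gene of the set.

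Stretches of 3 promoters are printed here because an exact CArG box stands in those of Cnn2 and Myl9 and not in that of Cnn1, a calponin of smooth muscle. Of the set, Myl9 and Cnn1 were each other's most similar gene in level (r = 0.910 over the 7 tumours), with Cnn1 at 5 to 48 reads a library. The part of the box in these levels was not tested. The sequences are RefSeq promoter windows of build GRCm38.p6, all on the plus strand: chr10:79988480-79988579 upstream of Cnn2, chr2:156775264-156775383 upstream of Myl9 and chr9:22099093-22099212 upstream of Cnn1. Capitals mark exact matches to the CArG box. Looser matches, and sites outside the promoter windows, were not searched.
Cnn2: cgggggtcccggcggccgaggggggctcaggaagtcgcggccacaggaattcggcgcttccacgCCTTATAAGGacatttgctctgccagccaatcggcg
Myl9: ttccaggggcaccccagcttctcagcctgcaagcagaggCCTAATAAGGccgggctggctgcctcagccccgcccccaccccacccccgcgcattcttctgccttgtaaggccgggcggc
Cnn1: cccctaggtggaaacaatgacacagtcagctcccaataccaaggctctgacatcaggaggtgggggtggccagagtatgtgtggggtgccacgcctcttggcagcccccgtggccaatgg
The box of Cnn2 lies 56 to 47 bases before the RefSeq start and that of Myl9 161 to 152 bases before it. Over the 250 bases before the start, an exact CArG box stood in 2 of the 10 promoters, Cnn2 and Myl9, and in 1.47% of 32851 mouse promoter windows. Of 69 related actin-cytoskeleton genes outside the set with a window, 8 (11.6%) had the box in any of their windows. The pattern is its own reverse complement, so both strands were searched. The core bound by TEAD factors, CATTCC, did not overlap the printed boxes. It occurred on either strand in 3 of the 10, Tagln2, Tpm1 and Actn4, and in 12.6% of all windows. Among the same 69 related genes, 21 (30.4%) had it, a share like that of the 10. These matches describe the letters in the windows only.

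Among the calponins, Cnn2 was the one gene of the set whose tumours did not overlap between the lines. Cnn2, the broadly expressed non-muscle calponin, was at 193, 211, 162 and 142 CPM in GSC1 tumours and at 58.4, 51.5 and 71.2 CPM in GSC2 tumours. Each GSC1 tumour lay above every GSC2 tumour. Within GSC1, tumours 3 and 4, with the higher brain scores, were lower than tumours 1 and 2. The part of brain tissue in these levels was not tested. The means were 177 ± 31.0 CPM in GSC1 (SD, n = 4) and 60.4 ± 9.98 CPM in GSC2 (SD, n = 3), a log2 fold change of 1.55 (SE 0.24). Of all 16068 genes tested, 2.53% lay higher in GSC1 without overlap, and the one such gene here was chosen with its values known.

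Cnn3, the acidic calponin of neural and other non-muscle cells, varied least. It was at 535, 507, 704 and 536 CPM in GSC1 tumours and at 488, 472 and 563 CPM in GSC2 tumours, so the highest and lowest tumours differed 1.49-fold. The lines overlapped, and the log2 fold change was 0.17 (SE 0.22). Cnn1, the calponin of differentiated smooth muscle, was nearly silent: 0.580, 0.625, 1.91 and 2.19 CPM in GSC1 tumours and 0.254, 0.631 and 1.70 CPM in GSC2 tumours. Those levels rest on 5 to 48 reads a library. The 3 short-biased libraries had the 3 highest values, 2 of them from GSC1 and 1 from GSC2, and the fold between the lines (0.61, SE 0.82) was smaller than its error. Tagln2, a single calponin-homology protein of many cell types, was at 312, 314, 252 and 182 CPM in GSC1 tumours and at 173, 150 and 229 CPM in GSC2 tumours. GSC1 tumours 1 to 3 lay above all GSC2 tumours and GSC1 tumour 4 lay among them (log2 fold change 0.53, SE 0.28).

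**Figure D1:**
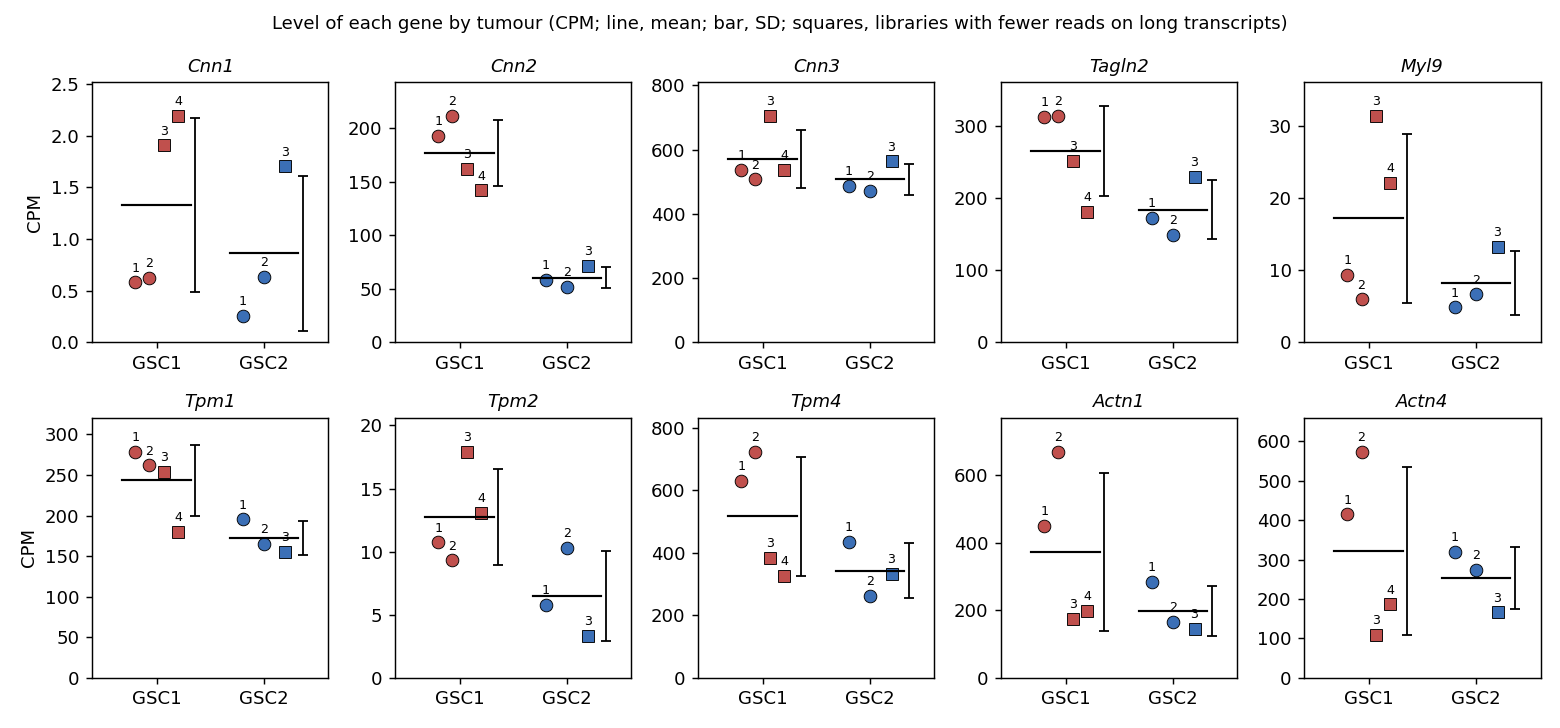
CPM of the 10 genes in each tumour, with GSC1 on the left and GSC2 on the right of each panel; numbers are tumour numbers, lines are means, bars at the side are SD, and squares are the 3 short-biased libraries. Only Cnn2 has GSC1 values (142 to 211 CPM) that all lie above the GSC2 values (51.5 to 71.2 CPM). Cnn2, Tagln2, Tpm1, Tpm4, Actn1 and Actn4 have their 2 highest values in GSC1 tumours 1 and 2.

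Myl9 encodes the regulatory light chain used mainly by smooth muscle myosin. It was at 9.36, 5.95, 31.4 and 22.1 CPM in GSC1 tumours and at 4.83, 6.63 and 13.2 CPM in GSC2 tumours. As with Cnn1, the highest tumour of each line was a short-biased library, and GSC1 tumours 1 and 2 fell within the GSC2 range. The means, 17.2 ± 11.7 CPM in GSC1 (SD, n = 4) and 8.21 ± 4.39 CPM in GSC2 (SD, n = 3), differed by 1.06 on the log2 scale with an SE of 0.65. Without the 3 short-biased libraries the log2 fold change of Myl9 was 0.42.

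The 3 tropomyosins had higher means in GSC1 tumours with partial overlap. Tpm4, a short cytoskeletal tropomyosin, was at 631, 724, 384 and 326 CPM in GSC1 tumours and at 435, 262 and 332 CPM in GSC2 tumours. GSC1 tumours 1 and 2 stood above all others, whereas GSC1 tumours 3 and 4 lay inside the GSC2 range (log2 fold change 0.59, SE 0.36). Tpm1, which yields both muscle and cytoskeletal forms from 1 gene, was at 279, 262, 253 and 180 CPM in GSC1 tumours and at 195, 165 and 155 CPM in GSC2 tumours. Only GSC1 tumour 4 fell under the highest GSC2 tumour (log2 fold change 0.50, SE 0.23). Tpm2, the tropomyosin best known from slow and smooth muscle, was at 10.7, 9.30, 17.9 and 13.05 CPM in GSC1 tumours and at 5.80, 10.3 and 3.31 CPM in GSC2 tumours. GSC2 tumour 2 alone reached into the GSC1 range, and the log2 fold change of 0.97 (SE 0.45) was 1.48 without that tumour and 0.31 without the 3 short-biased libraries.

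The alpha-actinins varied more within GSC1 than between the lines. Actn1 was at 449, 670, 174 and 197 CPM in GSC1 tumours and at 284, 166 and 143 CPM in GSC2 tumours. Actn4, the family member often found in invasive carcinoma, was at 415, 574, 109 and 186 CPM in GSC1 tumours and at 319, 273 and 166 CPM in GSC2 tumours. Within GSC1 the highest tumour exceeded the lowest 3.86-fold for Actn1 and 5.26-fold for Actn4, with the short-biased tumours 3 and 4 lowest for both. GSC1 tumour 3 had the lowest Actn4 level of all 7. The log2 fold changes between the lines were 0.91 (SE 0.54) for Actn1 and 0.35 (SE 0.57) for Actn4.

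All 10 log2 fold changes were positive, from 0.17 for Cnn3 to 1.55 for Cnn2, with a median of 0.60. Over all genes tested 53.7% were positive and the median was 0.03. The genes were chosen with this contrast known, so neither the count nor the median says anything beyond these values. Over all 16068 genes edgeR's quasi-likelihood test called 0 between the lines after Benjamini-Hochberg adjustment (0% of genes). At an unadjusted p under 0.05 it had 677 genes (4.21%), limma-voom called 1 (0.00622%), DESeq2 called 192 (1.19%), and edgeR with the brain score as covariate called 156 (0.971%). Further fits gave other values for several of the 10 genes, 1 without the short-biased libraries and 1 with the brain score as covariate. The fit without those libraries kept only tumours 1 and 2 of each line. Their brain scores were unequal, at 6.14 and 4.83 in GSC1 and at 6.36 and 7.94 in GSC2. Cnn2 was at 1.88 in the fit without those libraries and at 1.49 with the brain score, whereas Actn4 was at 0.74 and -0.15. Actn4 was also at -0.09 without GSC1 tumour 2. Actn1 was at 1.32 without the short-biased libraries and at 0.53 with the brain score, Tagln2 at 0.97 and 0.46, and Tpm4 at 0.97 and 0.42. Cnn1 ranged between 0.18 without GSC2 tumour 1 and 1.54 without GSC2 tumour 3.

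**Figure D2:**
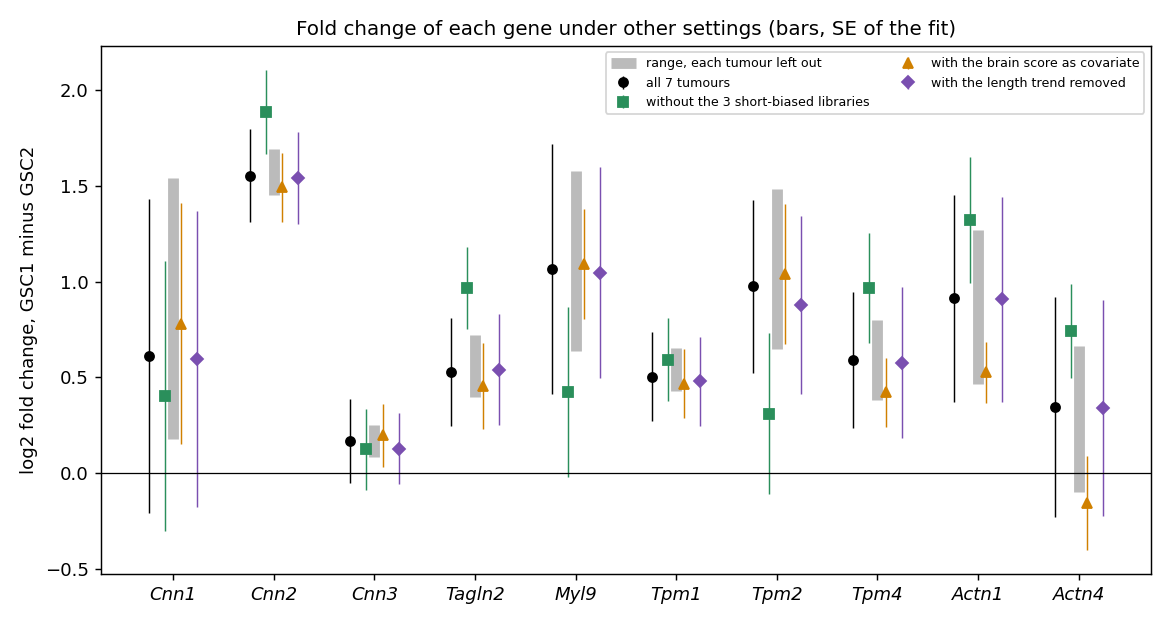
Log2 fold change, GSC1 minus GSC2, of each gene in all 7 tumours, without the 3 short-biased libraries, with the brain score as covariate and with the transcript length trend removed; bars are the SE of the fit and grey bands span the fits that leave out 1 tumour. Cnn2 stays between 1.45 and 1.88, and Actn4 crosses 0, between -0.15 and 0.74.

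The make-up of each family, as shares of its summed CPM per kb, overlapped between the lines for some genes and not for others. Among the 4 tropomyosin genes, which also include Tpm3 (whose reads its copy Tpm3-rs7 may share), Tpm4 made up 53.5 to 60.1% in GSC1 tumours and 46.7 to 55.1% in GSC2 tumours. Tpm1 made up 16.02 to 26.2% in GSC1 tumours and 17.8 to 21.7% in GSC2 tumours, and Tpm2 at most 2.46% in any tumour. In the calponin and transgelin family of 6 genes, Cnn3 held 30.8 to 43.1% in GSC1 tumours and 47.7 to 57.3% in GSC2 tumours, without overlap. Cnn2 held 13.8, 16.2, 6.37 and 8.63% in GSC1 tumours and 6.18, 5.11 and 5.42% in GSC2 tumours. Cnn1 held at most 0.137%. The 2 non-muscle actinins were close to each other in amount, with Actn1 at 1.12, 1.21, 1.65 and 1.10 times Actn4 per length in GSC1 tumours and at 0.925, 0.631 and 0.899 times in GSC2 tumours. Every GSC1 tumour had more Actn1 than Actn4 and every GSC2 tumour less. The ratio of Cnn2 to Tagln2 per length was 0.398, 0.434, 0.413 and 0.504 in GSC1 tumours and 0.218, 0.222 and 0.200 in GSC2 tumours, again without overlap. The ratio of Cnn2 to Cnn3 did not overlap either. Tpm4 to Tpm1 did overlap, at 3.07, 3.75, 2.06 and 2.46 in GSC1 tumours and 3.03, 2.15 and 2.91 in GSC2 tumours. So did Myl9 to Cnn2, at 0.106, 0.0614, 0.422 and 0.339 in GSC1 tumours and 0.180, 0.281 and 0.404 in GSC2 tumours. These ratios come from the same values and the same contrast by which the genes were chosen, and they were picked after those values had been seen.

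**Figure D3:**
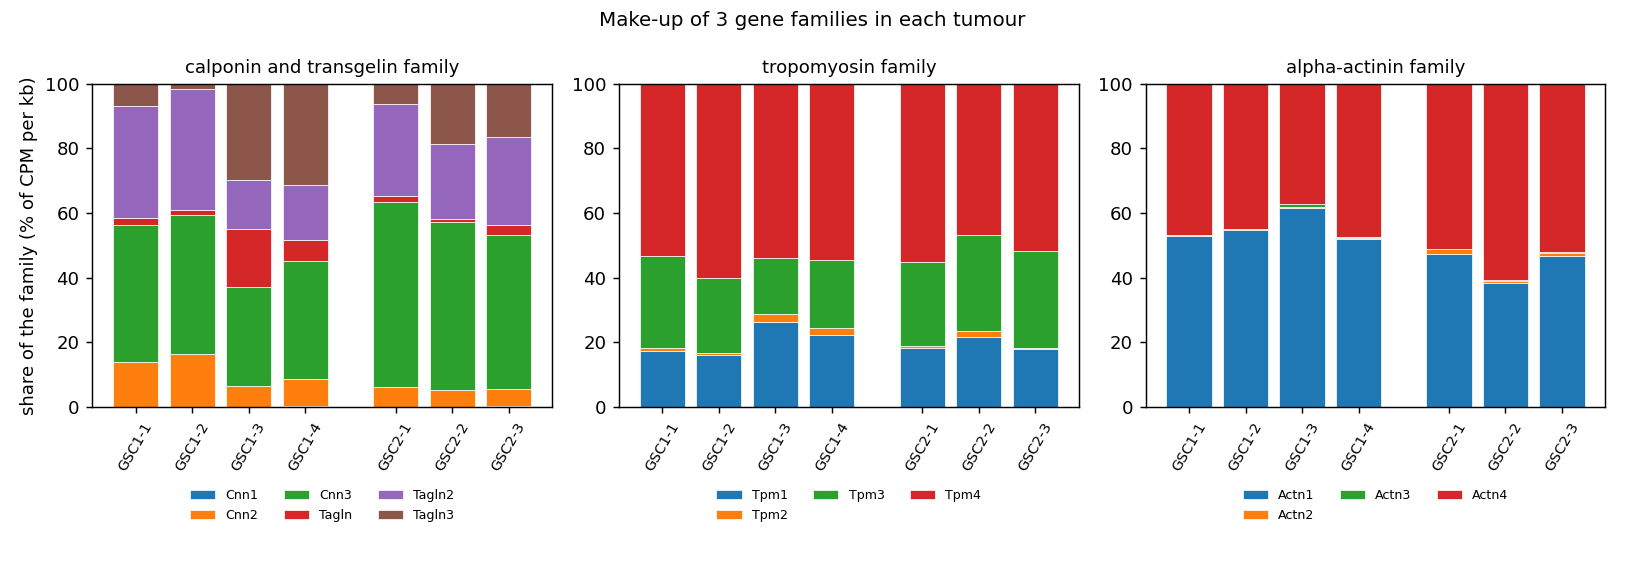
Share of each gene in its family's summed CPM per kb, in percent, for the calponin and transgelin, tropomyosin and alpha-actinin families, with the 4 GSC1 tumours left of the 3 GSC2 tumours in each panel. Tpm4 makes up 46.7 to 60.1% of tropomyosin in all tumours, and Tagln3, a neuronal transgelin, takes 29.7 and 31.3% of its family in GSC1 tumours 3 and 4 against 1.76 to 18.7% in the other 5.

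Among tumours of the same line, no relation of the 10 genes to the brain score passed after adjustment, and 4 genes had an unadjusted p under 0.05 for r. With log2 CPM and scores centred within lines, which removes the contrast used to choose the genes, the Pearson r of Actn1 was -0.987 (exact permutation p = 0.0139, 0.167 after adjustment) and its Spearman rho was -0.964 (exact permutation p = 0.0208, 0.231 after adjustment). Actn4 (r = -0.932, exact permutation p = 0.0417) and Tpm4 (r = -0.926, exact permutation p = 0.0417) had the same sign, and their rank correlations were -0.857 (exact permutation p = 0.0764) and -0.893 (exact permutation p = 0.0417). Myl9 had the opposite sign (r = 0.929, exact permutation p = 0.0278, rho = 0.893, exact permutation p = 0.0417). With the 2 tumours of most extreme score left out, r was -0.976 for Actn1, -0.805 for Actn4, -0.970 for Tpm4 and 0.810 for Myl9. None of the 20 relations, of 10 genes to 2 scores, passed after adjustment (two-sided, all arrangements within lines, lowest adjusted p 0.167 for r and 0.231 for rho). The smallest possible p of this exact permutation test was 0.00694. Even at that p, a relation alone could not pass adjustment over 20 relations. The lack of passing relations therefore cannot tell an absent relation from a present one. The high scores in GSC1 belong to the short-biased tumours 3 and 4, and the part of transcript length in these relations was not tested; 3 and 4 libraries are too few to repeat them within each kind.

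**Figure D4:**
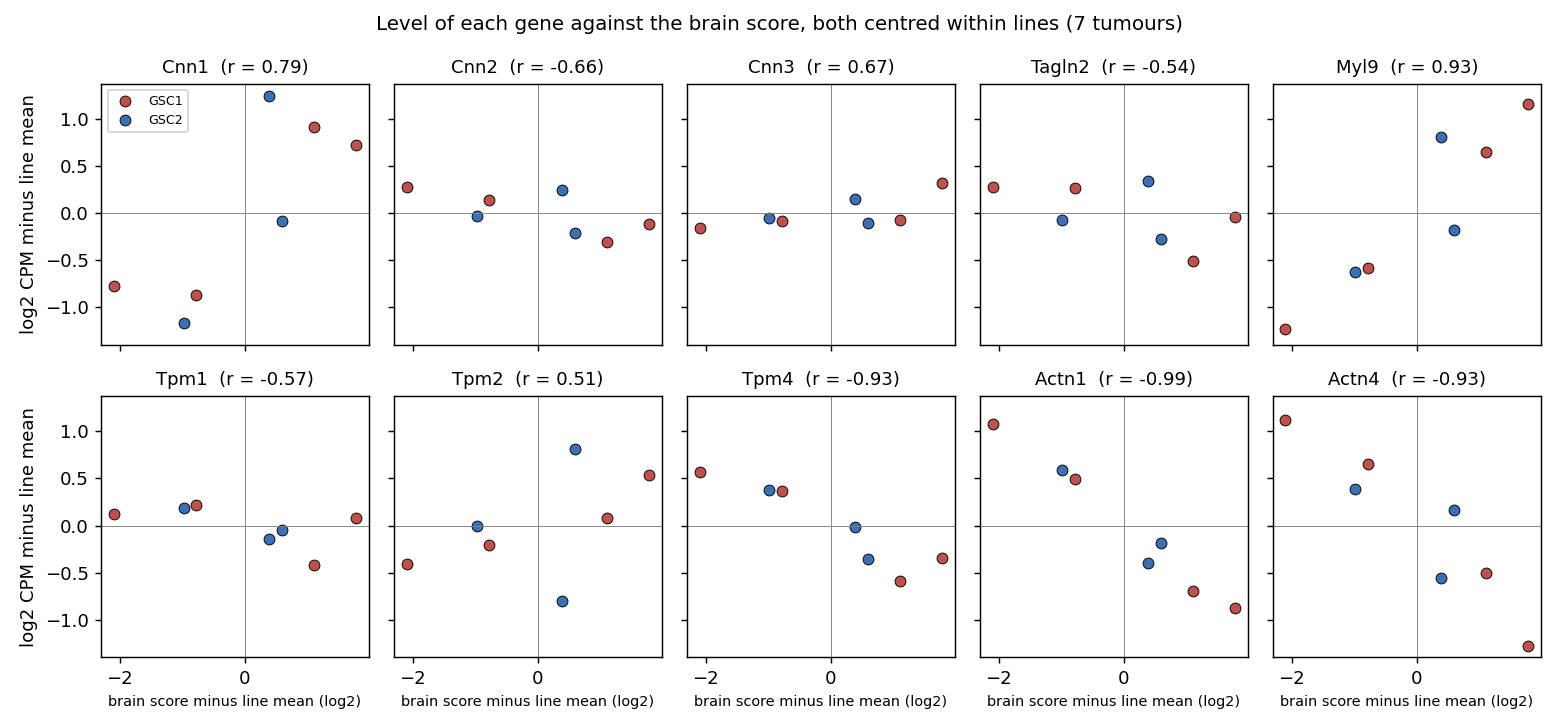
Log2 CPM of each gene against the brain score, both minus the mean of the tumour's line, with r over the 7 tumours in each title and colours for GSC1 and GSC2. Points for Actn1, Actn4 and Tpm4 run downward (r between -0.99 and -0.93) and points for Myl9 and Cnn1 upward (0.93 and 0.79). No relation passed adjustment, and none could have passed alone.

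The mural cell score, the mean of 10 pericyte and mural markers that are no cytoskeletal genes, was 3.45, 3.46, 4.23 and 3.87 in GSC1 tumours and 3.38, 3.97 and 3.42 in GSC2 tumours. Of the 10 genes, Tpm2 was the one with an unadjusted p under 0.05 (r = 0.831, exact permutation p = 0.0278, 0.167 after adjustment). Its rho was 0.714 (exact permutation p = 0.0833, 0.231 after adjustment), and r was 0.399 when the 2 tumours with the most extreme scores were left out. The summed mural markers were at 231 to 408 CPM in GSC1 tumours and 204 to 334 CPM in GSC2 tumours. The contractile smooth muscle markers (6 genes) summed to 35.6, 29.3, 435 and 117 CPM in GSC1 tumours and to 21.6, 19.2 and 43.9 CPM in GSC2 tumours. Tagln and Acta2 made up most of the sum in GSC1 tumours 3 and 4, the tumours highest in Myl9 and Cnn1, at 291 and 132 CPM in tumour 3. Myh11, the smooth muscle myosin heavy chain gene, was instead highest in GSC2 tumour 2, at 3.79 CPM, against 1.47 and 2.24 CPM in GSC1 tumours 3 and 4. Lmod1 had at most 8 reads in any tumour, too few to rank them, and was at 0 in GSC1 tumour 3 and GSC2 tumour 3. Actg2 was at 0 in GSC1 tumour 4. Fibroblast and meningeal markers (8 genes) summed to 563, 512, 2268 and 1494 CPM in GSC1 tumours and 567, 712 and 1026 CPM in GSC2 tumours. Skeletal muscle markers (10 genes) summed to at most 5.46 CPM in any tumour, with Ckm, Tnnc2, Myh1, Myh2 and Myh4 at 0 in some. The part of smooth muscle, fibroblast and mural cells in the levels of Myl9, Cnn1 and Tpm2 was not tested.

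Among themselves, the genes resembled each other in small groups, by Pearson r of log2 CPM over the 7 tumours. Tpm4 and Actn1 were closest (r = 0.940), followed by Myl9 and Cnn1 (r = 0.910), Actn1 and Actn4 (r = 0.865) and Cnn3 and Myl9 (r = 0.851). Myl9 and Actn4 were least alike (r = -0.826). Outside the set, Qsox1 (r = 0.993), Serpinb6a (r = 0.990) and Epha3 (r = 0.986) were most like Cnn2 among 12244 genes of at least 5 CPM. Serpinb6a, an intracellular serpin gene, was at 153, 142, 111 and 100.2 CPM in GSC1 tumours and at 33.6, 37.6 and 48.4 CPM in GSC2 tumours. Il11ra1 (r = 0.992), Chid1 (r = 0.986) and Rdh14 (r = 0.982) were most like Cnn1, and AI413582 (r = 0.975), Cmc2 (r = 0.971) and Akirin2 (r = 0.962) most like Cnn3. These are the closest of many genes over 7 points that share library and depth, and are given as a description.

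Of 84 related genes of the actin cytoskeleton that are not in the set, 80 were tested and 0 passed edgeR's quasi-likelihood test in either direction. At an unadjusted p under 0.05 there were 7 higher and 2 lower in GSC1, where 4.21% of all genes were under it, and limma-voom called 0. DESeq2 called Csrp2 and Fhl2, where it called 1.19% of all genes. Without the 3 short-biased libraries, edgeR called Tes and Capg, where it called 0.348% of all genes. That fit kept only tumours 1 and 2 of each line. All 4 genes were higher in GSC1 in the fit that called them. With all tumours the lines overlapped for Tes, where GSC1 tumours 3 and 4 were at 81.2 and 94.6 CPM and GSC2 tumours at 78.4 to 87.4 CPM. They also overlapped for Capg, with GSC1 tumour 4 at 86.7 CPM and GSC2 tumour 3 at 87.2 CPM. Log2 fold changes were positive for 56 and negative for 24, with a median of 0.18. The 11 calponin, transgelin and tropomyosin relatives tested had 9 positive and 2 negative (median 0.29), the 17 genes of myosin II and its regulators 11 and 6 (0.12), the 25 adhesion and bundling genes 16 and 9 (0.30), and the 16 filament turnover genes 12 and 4 (0.07).

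Among related genes whose lines did not overlap, 4 were higher and 2 lower in GSC1, beside 2.53% and 3.05% of all genes. The second lower one, Actn2 of muscle, averaged under 5 CPM. Csrp2, a LIM protein gene of smooth muscle, averaged 173 ± 44.2 CPM in GSC1 tumours (SD, n = 4) and 81.0 ± 8.52 CPM in GSC2 tumours (SD, n = 3), with a log2 fold change of 1.10 (SE 0.27, edgeR adjusted p = 0.635). Fhl2, a LIM cofactor gene of SRF, averaged 14.6 ± 3.83 CPM in GSC1 tumours and 5.96 ± 1.32 CPM in GSC2 tumours, with a log2 fold change of 1.29 (SE 0.33, edgeR adjusted p = 0.667). The log2 fold changes were 0.95 (SE 0.36) for Pdlim7 and 0.33 (SE 0.19) for Wdr1, the gene of a cofactor of actin disassembly. Fscn1, the gene of the bundling protein fascin, averaged 235 ± 61.3 CPM in GSC1 tumours and 352 ± 43.9 CPM in GSC2 tumours, with a log2 fold change of -0.58 (SE 0.26). None of these 5 passed edgeR's test over all genes.

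Of the actins, Srf, Mrtfa and Mrtfb, edgeR's test called 0, beside 1 of them, Acta2, at an unadjusted p under 0.05, and DESeq2 and limma-voom called 0. The cytoplasmic actin genes Actb, at 2937 ± 264 CPM in GSC1 tumours and 2583 ± 311 CPM in GSC2 tumours, and Actg1, at 1067 ± 151 CPM in GSC1 tumours and 886 ± 222 CPM in GSC2 tumours, differed by less than the sum of their SDs. Acta2, the smooth muscle actin gene, was at 11.97, 11.8, 132 and 39.95 CPM in GSC1 tumours and at 7.28, 5.30 and 15.2 CPM in GSC2 tumours, so tumours 3 and 4 of GSC1 were high and the lines overlapped (log2 fold change 2.40, SE 0.97, edgeR adjusted p = 0.9999). Without GSC1 tumour 3 the log2 fold change of Acta2 was 1.24, and without the short-biased libraries it was 0.93. Tagln, the smooth muscle transgelin gene, named after its values were seen, had the same order, at 19.8, 13.7, 291 and 70.1 CPM in GSC1 tumours and 11.04, 7.12 and 26.7 CPM in GSC2 tumours. The other muscle actins were low: Acta1 was at up to 2.00 CPM, Actg2 at up to 3.58 CPM and Actc1 at up to 0.0795 CPM. Srf averaged 50.9 ± 16.9 CPM in GSC1 tumours and 42.3 ± 4.65 CPM in GSC2 tumours, a log2 fold change of 0.27 (SE 0.30). Its coactivator genes Mrtfa and Mrtfb were at 39.9 ± 18.5 and 35.6 ± 19.2 CPM in GSC1 tumours and at 36.5 ± 4.99 and 45.8 ± 10.3 CPM in GSC2 tumours. Myocd, the coactivator gene of smooth and heart muscle, did not exceed 0.105 CPM.

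**Figure D5:**
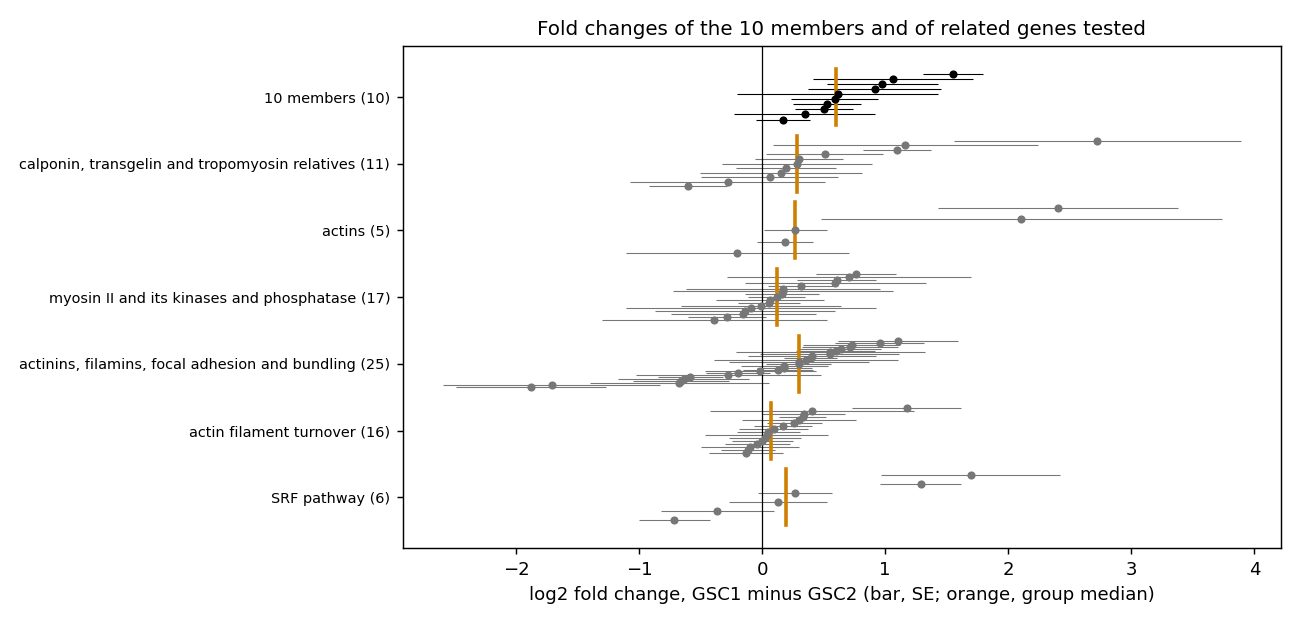
Log2 fold changes, GSC1 minus GSC2, of the 10 genes and of 80 related genes tested, by group; bars are SE, orange lines are group medians and numbers in parentheses are genes. The 10 genes lie between 0.17 and 1.55, and the medians of the related groups between 0.07 and 0.30.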

How the data were processed

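Total RNA of 7 tumours (4 GSC1, 3 GSC2) was made into NEBNext Ultra libraries, per the labels' protocols. The authors deposited 1 table of unnormalized counts a tumour, with Ensembl gene identifiers. TopHat2 2.0.11, HTSeq and the builds mm9 and dm3 are named per the submitters' processing notes, with no role. The sources used here do not give the mode or strandedness of counting. Reads of antisense neighbours therefore cannot be told apart. In GENCODE M21, genes on the opposite strand cover 17.7% of the exon bases of Cnn3, 6.08% of Tpm4 and 5.16% of Actn4. Over Actn1, Gm47766 covers 6.56% and Gm47767 covers 1.59%. The 5 summary lines were left out; reads on no gene were 6.19 to 14.2% of those listed. Symbols and longest transcript lengths came from GENCODE M21 (32897 identifiers matched), and no coordinates of the count tables were used. Every pair of libraries differed beyond sampling noise (chi-square per degree of freedom at least 66.5). The series calls the tumours independent.

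Counts were fitted in R 4.3.3 with edgeR 4.0.16 (TMM, filterByExpr, robust quasi-likelihood test, Benjamini-Hochberg over 16068 genes, threshold 0.05), with limma-voom (limma 3.58.1) and DESeq2 1.42.0 as alternatives, all tested on simulated data. Log2 CPM used a prior count of 2. Python 3.11.15 and scipy 1.17.1 served for exact permutation tests of relations to scores. The alternatives were other scalings and filters, the replicate number as a block, the brain score as a covariate, a length offset, the fit without 3 libraries, and each tumour left out. The fit without 3 libraries kept tumours 1 and 2 of each line. Promoter windows are from RefSeq, and all 10 genes matched.

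The genes, lists, scores and alternatives were chosen with earlier results of these data known. The rule for related genes named SRF, its coactivators, all actins and up to 6 genes a direction with the largest fold among those of at least 5 CPM whose lines did not overlap. For each calponin it named the 3 most similar other genes.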

Additional observations from a re-analysis of the deposited data

Results flagged for a closer look

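In 4 of 25 genes checked, 1 GSC1 tumour stood far from the other 3 by Dixon's 95% limit for the gap to the nearest tumour over the group's range; chance flags about 1 in 20 groups. Cnn3 was highest in GSC1 tumour 3, at 704 CPM against 507 to 536 CPM in the other 3 (gap 0.850 of the range). Actg2 was highest in the same tumour, at 3.58 CPM against at most 0.478 CPM (gap 0.866). Actc1 had 2 reads in tumour 3 and Myocd 1 read in tumour 1, with the other 3 at 0, which makes the gap 1 by construction. Those 2 flags say nothing about the tumours and leave Cnn3 and Actg2. GSC1 tumour 3 is short-biased and has the highest brain score, mural score and summed fibroblast markers, whose part in these values was not tested.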

How the results depend on the processing

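Over all genes edgeR called 0, as with RLE and upper-quartile factors, the filter at 5 CPM, the length offset and each tumour left out (0 to 0). It called 1 with no filter, 156 when the brain score was a covariate, and 55 without the 3 short-biased libraries; limma-voom called 1 and DESeq2 192. Of the related genes, 2 were called by DESeq2 and 2 without the short-biased libraries, against 0 in the other fits. The difference between the lines in each tumour's median log2 CPM over the 10 genes, another quantity than the median of their fold changes, was 0.47 and lay between 0.34 and 0.64 with a tumour left out, and at 0.78 without the short-biased libraries, which moved it by less than the SD within lines (0.35). The replicate block gave 0 calls and a difference in these medians of 0.57. Deviations from the line means correlated at 0.583, -0.306 and 0.409 between same-numbered tumours. Without differently numbered tumours beside them, these values cannot decide whether replicate numbers pair the tumours. Log2 fold changes turned for Actn4, at -0.154 with the brain score and -0.0946 without GSC1 tumour 2. They also turned for Mrtfa, at -0.143 with the brain score and between -0.0859 and 0.378 with a tumour left out (-0.0650 without GSC1 tumour 1). They turned for Mrtfb (0.0310) and Acta1 (0.0727) without the short-biased libraries, and Acta1 lay between -0.580 and 0.228 with a tumour left out (0.189 without GSC1 tumour 2). The correlation with the mural score turned for Cnn2 when not centred (0.0653) and lay between -0.357 and 0.841 for Cnn3 with a tumour left out. In none of these settings did a relation to a score pass. With a tumour left out there are fewer arrangements within lines, so passing was harder still. Those fits cannot show that relations are absent. The causes of the turned values were not tested. Cnn1, at 5 to 48 reads a library, is limited by depth.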
